A study of Mus musculus with 34 samples.

Results

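The genes described here are the 6 ligands of the epidermal growth factor (EGF) family Areg, Ereg, Hbegf, Btc, Nrg1 and Egf, together with the 4 ErbB receptors Egfr, Erbb2, Erbb3 and Erbb4. Their rows were taken by gene symbol, though the set was chosen with earlier results of these data known. All 10 were present both among the 14552 genes of a table of 10 libraries and among the 17406 genes of a table of 24 libraries. RNA sequencing of poly(A) RNA from the heart left ventricle (LV) of CFW mice gave both tables, which were normalized separately, so that every comparison stayed within one of them.

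The 10-library table held 3 sham hearts, which the titles call sham and whose labels give no operation, 3 hearts at 4 h and 4 hearts at 24 h after myocardial infarction (MI), none of them injected. The 24-library table held 2 hearts collected 4 h after a sham operation without injection, and infarcted hearts that received modified mRNA (modRNA). The labels name the injected modRNA Luc, which stands for the luciferase reporter, or AC, which they do not spell out. Luc hearts numbered 4 at 4 h, 3 at 24 h and 4 at 48 h, and AC hearts likewise 4, 3 and 4. Every MI was made by tying off the left anterior descending artery (LAD) for good, and injections went into the border zone directly after ligation. The only sham group of the 24-library table is 4 h old, and no infarcted heart without injection is in that table, so that infarction and injection cannot be told apart there. The ages and sexes of the mice are not given in the sources used here.

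EGF family ligands are made as precursors in the cell membrane, from which metalloproteases of the ADAM family release the active growth factor. A released ligand binds receptors on the same or a neighbouring cell and pairs them into dimers, whose kinase domains signal to the RAS-ERK and PI3K-AKT pathways. Areg and Egf bind EGFR, Hbegf, Btc and Ereg bind EGFR and ErbB4, and Nrg1 binds ErbB3 and ErbB4, while ErbB2 has no known ligand and acts as the partner of the other receptors. In the heart, neuregulin from endothelial cells acting on ErbB2 and ErbB4 of cardiomyocytes is known to be needed for the formation of the ventricular wall and for the upkeep of the adult muscle.

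Expression is given as CPM, that is, reads of a gene per scaled library size. The worth of 1 read was estimated for each library as its most common small value. It lay between 0.0313 and 0.0479 CPM in the 10-library table and between 0.0241 and 0.0420 CPM in the 24-library table. Values far below 1 CPM thus rest on a few reads. The summed CPM of a library, divided by this worth, gave 12554489 to 18954487 reads in the former and 17091513 to 22192765 in the latter. These totals cover the genes of the table only and are not the full sequencing depth. Differences were tested with limma on log2(CPM + 1) over all genes whose mean reached 1 CPM, and q is the Benjamini-Hochberg adjusted p-value. A gene is said to have risen or fallen where q was under 0.05. Because of the added 1, the fold change of a weakly expressed gene is understated on the log2 scale, and each library stands for 1 mouse, so that the tests measure the spread between mice. Since these are bulk samples, fewer cells of a type and less RNA per cell cannot be told apart.

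All 6 cardiomyocyte markers were detected in every group. Their summed level lay between 34850 and 37380 CPM in the sham and 4 h libraries of the 10-library table and between 12390 and 21360 CPM at 24 h post-MI. The summed level of 5 neutrophil and monocyte markers lay between 1.49 and 28.3 CPM before 24 h and between 265.1 and 1708 CPM at 24 h. In the 24-library table Asah1, which encodes acid ceramidase, lay between 21.4 and 32.9 CPM in the sham and Luc libraries, between 5296 and 13700 CPM in AC hearts at 4 h, and above 42 CPM in all later AC libraries. The titles of the sham and 4 h libraries and of the 48 h libraries in this table carry sample numbers S1 to S10. Those of the 24 h libraries carry none and hold the letters Br instead. The titles do not say what these marks stand for, and time cannot be told apart from whatever they stand for. The atrial gene Myl7, which goes against a purely ventricular sample, was at 9.05 to 112 CPM in both 24 h groups and at 1.49 to 24.8 CPM in both 48 h groups, against at most 0.147 CPM in sham and 4 h libraries of this table.

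In hearts without injection, Hbegf was the only tested ligand past the threshold at 4 h post-MI. Ereg also lay above every sham library at 4 h, but missed the threshold on the log2(CPM + 1) scale (limma q = 0.098). By 24 h all 9 members that passed the filter had changed, at a time when 35.6% of all 12487 genes tested rose and 30.3% fell. The count was 8 with limma-voom and 7 to 9 with a library left out. It includes Ereg and Nrg1, which passed the filter only through their 24 h libraries. For these genes, passing the filter and rising are not separate observations. Of the tested ligands Ereg and Hbegf rose the most, Btc and Nrg1 rose by less, and Egf fell. Of the receptors, Egfr and Erbb2 rose, and Erbb3 and Erbb4 fell. The plot of values by library shows each heart.

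**Figure D1:**
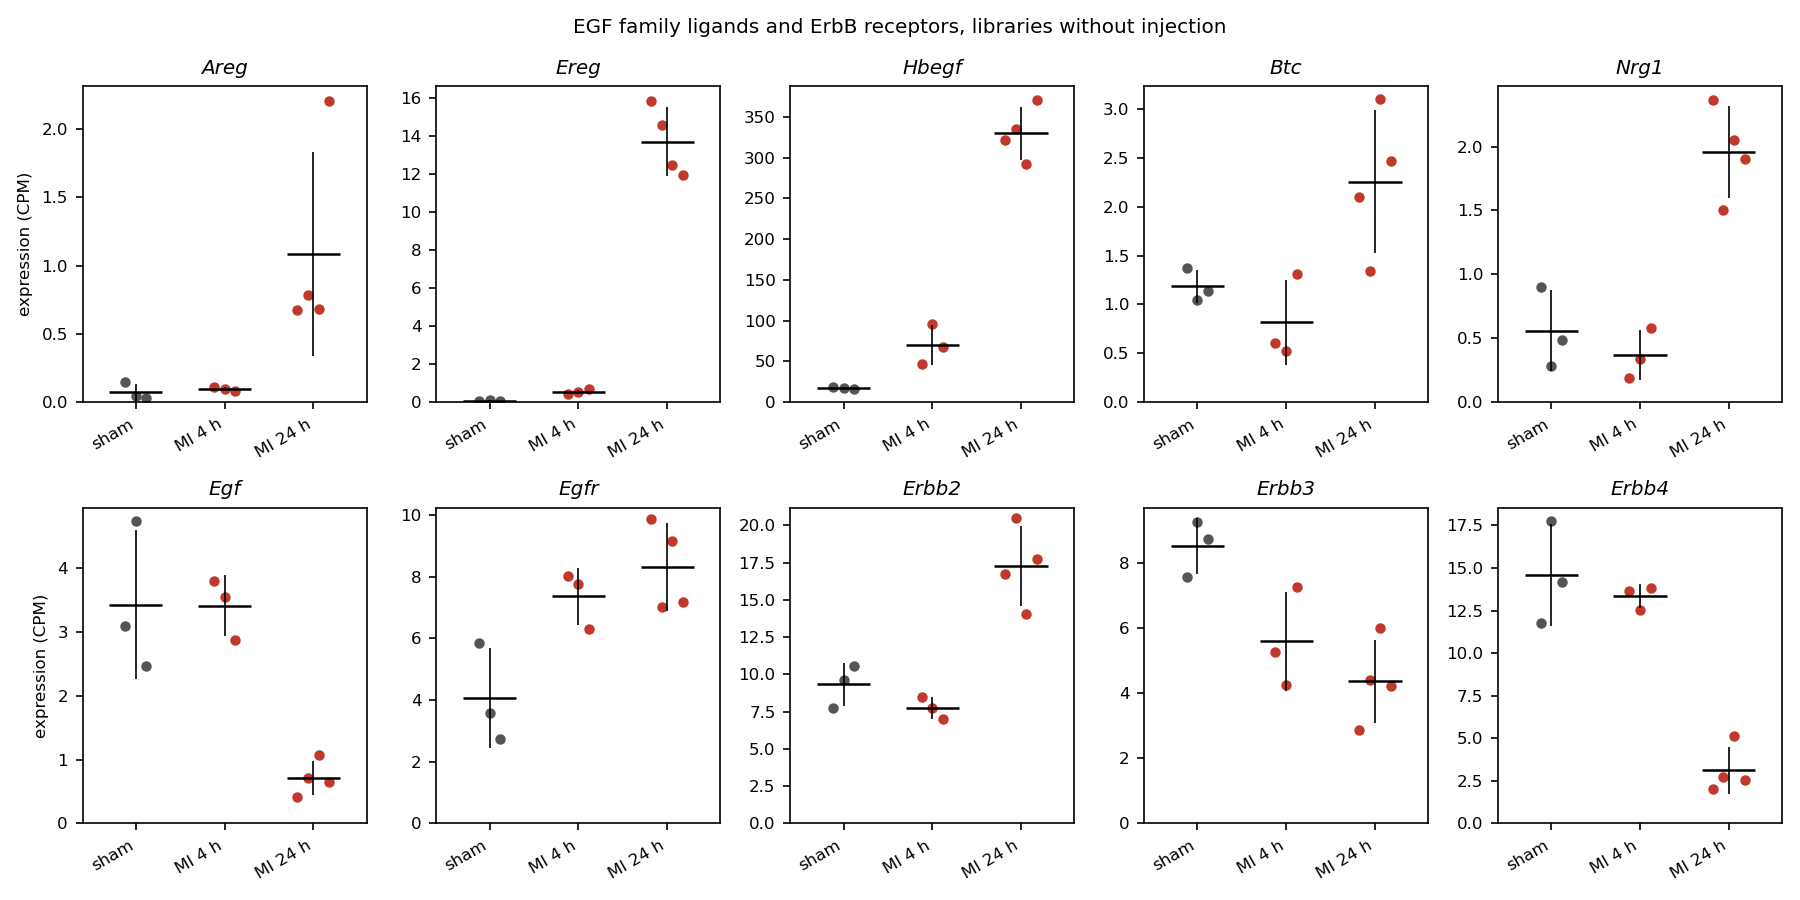
Expression of the 10 genes in CPM on linear axes, 1 point per library, in sham hearts (grey) and in hearts 4 h and 24 h post-MI without injection (red), with the group mean and SD in black. Hbegf stepped from 15.6 to 18.9 CPM in sham hearts to 292 to 370 CPM at 24 h, while Erbb4 and Egf were lowest at 24 h.

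Hbegf, the heparin-binding ligand, was at 18.9, 17.2 and 15.6 CPM in the 3 sham hearts, at 47.1, 95.2 and 67.8 CPM at 4 h post-MI, and at 322, 335, 292 and 370 CPM at 24 h. The 3 groups did not overlap at either step. The group means were 17.2 ± 1.67 (SD, n = 3), 70.0 ± 24.1 (n = 3) and 329.9 ± 32.4 CPM (n = 4). Against sham hearts Hbegf was 4.07 ± 1.46 times higher at 4 h (log2 fold change 1.91, SE 0.20, 95% interval 1.46 to 2.36, limma q = 4.4e-04) and 19.1 ± 2.65 times higher at 24 h (log2 fold change 4.18, SE 0.19, interval 3.76 to 4.60, q = 6.5e-08). It was the only 1 of the 9 tested members to rise at 4 h, when 1.55% of all 12487 genes tested rose and 0.817% fell. Between 4 and 24 h Hbegf rose by a further 2.27 on the log2 scale (SE 0.19, q = 3.1e-06), a step at which 37.2% of all genes rose and 26.7% fell.

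Ereg encodes epiregulin and was close to its detection limit in sham hearts, at 0.0362, 0.121 and 0.0650 CPM, or 1, 3 and 2 estimated reads. At 4 h post-MI it was at 0.414, 0.526 and 0.658 CPM, and at 24 h at 15.8, 14.6, 12.4 and 11.9 CPM. Every library at 4 h was above every sham library, and every library at 24 h above all others. Pooled over libraries and scaled by depth, the ratio of reads to sham was 7.38 at 4 h (39 against 6 reads, 95% interval for counting error only 3.10 to 21.3) and 190.8 at 24 h (1510 against 6 reads, interval 87.5 to 521). In the test Ereg rose at 24 h (log2 fold change 3.77, SE 0.13, q = 1.6e-08) and missed the threshold at 4 h (0.51, SE 0.14, q = 0.098). The result at 4 h depended on the scale, since q was 0.0023 with a pseudocount of 0.1 and ran from 0.0023 to 0.64 over all alternatives.

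Areg, the gene of amphiregulin, stayed below the expression filter and was not tested. It was at 0.145, 0.0403 and 0.0325 CPM in sham hearts, at 0.113, 0.0957 and 0.0774 CPM at 4 h, and at 0.675, 0.782, 0.685 and 2.21 CPM at 24 h. All 4 libraries at 24 h were above all earlier ones, and library H was far above the other 3. The pooled reads were 118 at 24 h against 6 in sham hearts, a ratio of 14.9 per depth with a counting interval of 6.65 to 41.5, and 7 against 6 at 4 h, a ratio of 1.32 with an interval of 0.381 to 4.77.

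Areg, Ereg and Btc lie close together on chromosome 5 of mm10, Ereg at 91074617 to 91093650 and Areg at 91139599 to 91148433 on the plus strand, and Btc at 91357261 to 91402995 on the minus strand. RefSeq promoter sequences (GRCm38.p6, 250 bases before to 50 bases after the start of a gene) were matched for 6 of the 10 members, Areg, Btc, Egf, Egfr, Erbb2 and Erbb4. They were searched on both strands for the cAMP response element TGACGTCA and its shorter form TGACG, which lies within it, for the AP-1 motif TGANTCA, and for the TATA box TATAAA. Areg alone among these 6 held the full TGACGTCA, which is printed here because it sets this promoter apart from the other 5 matched ones. The window of 30 bases at chr5:91139527-91139556 on the plus strand reads as follows, with the motif in capitals.
Areg: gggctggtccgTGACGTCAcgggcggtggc
The first base of this motif lay 61 bases before the start of the gene, and a TATAAA began 31 bases before it. The form TGACG was also found on the strand opposite to the gene, 115 bases before the start of Areg, 113 bases before that of Btc and 171 bases before that of Erbb2. Over 32851 promoters, TGACGTCA was found in 1.79%, TGACG in 20.8%, TATAAA in 13.6% and TGANTCA, which none of the 6 held, in 7.81%. A match describes letters only, and binding was not measured.

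Btc, the gene of betacellulin, was at 1.37, 1.05 and 1.14 CPM in sham hearts, at 0.602, 0.526 and 1.32 CPM at 4 h and at 2.10, 1.34, 3.10 and 2.47 CPM at 24 h. The sham and 24 h groups overlapped by 1 library on each side, with sham library D above 24 h library D. It rose at 24 h by a factor of 1.90 ± 0.674 (log2 fold change 0.55, SE 0.21, q = 0.034). This call was the weakest of the 9 at 24 h, since it was lost with 5 of the 10 libraries left out in turn, with sham H or I or MI 24 h C, G or H, and q then reached 0.099. Between 4 and 24 h Btc rose by 0.84 on the log2 scale (SE 0.21, q = 0.0039) without overlap of the groups.

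Nrg1 encodes neuregulin-1 and was at 0.904, 0.282 and 0.487 CPM in sham hearts, at 0.188, 0.335 and 0.581 CPM at 4 h, and at 2.36, 1.5, 2.05 and 1.90 CPM at 24 h. These values cover the gene model of the table, from 31818028 to 31918204 on chromosome 8 of mm10, and transcripts outside it were not analysed here. All 24 h libraries were above all others, and the sham and 4 h libraries overlapped. Nrg1 rose at 24 h (log2 fold change 0.94, SE 0.17, q = 6.3e-04), with 212 reads against 47 in sham hearts and a ratio per depth of 3.42 (counting interval 2.48 to 4.80). Ereg and Nrg1 passed the filter of 1 CPM only through their 24 h libraries, so that their passing it and their higher values at 24 h are not separate observations.

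Egf, on chromosome 3 of mm10 (129677577 to 129755323, minus strand), whose product gave the family its name, moved the other way. It was at 3.09, 4.73 and 2.46 CPM in sham hearts, at 3.80, 3.55 and 2.88 CPM at 4 h, and at 0.413, 0.720, 1.07 and 0.647 CPM at 24 h. The sham and 4 h libraries overlapped and all 24 h libraries lay below them. Egf fell at 24 h to 0.208 ± 0.107 of its sham level (log2 fold change -1.35, SE 0.19, q = 8.1e-05), and it fell by 1.37 on the log2 scale between 4 and 24 h (SE 0.19, q = 8.5e-05).

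Of the receptor genes, Egfr (16752203 to 16913908) and Erbb2 (98412484 to 98437717) lie on the plus strand of chromosome 11 of mm10, Erbb3 on the minus strand of chromosome 10 (128569368 to 128589502) and Erbb4 on that of chromosome 1 (68032187 to 69108060). Egfr was at 5.86, 3.59 and 2.73 CPM in sham hearts, at 8.01, 7.75 and 6.31 CPM at 4 h and at 9.87, 7.01, 9.14 and 7.19 CPM at 24 h. Both post-MI groups lay above all sham libraries and overlapped each other. At 4 h the fold of 1.81 ± 0.756 did not pass the test (log2 fold change 0.77, SE 0.21, q = 0.10), and at 24 h Egfr rose by 2.04 ± 0.887 times (log2 fold change 0.91, SE 0.20, q = 0.0017). Sham library D decided the result at 4 h, since without it the log2 fold change was 1.01 with q = 0.023, and q ran from 0.0031 to 0.56 over all alternatives. The difference between 4 and 24 h was 0.15 (SE 0.20, interval -0.29 to 0.58, q = 0.53).

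Erbb2, the ligandless partner of the other receptors, was at 7.77, 9.64 and 10.6 CPM in sham hearts, at 8.50, 7.75 and 7.01 CPM at 4 h and at 16.7, 20.5, 14.0 and 17.8 CPM at 24 h. The 24 h libraries stood above all others, while the sham and 4 h libraries overlapped. Erbb2 rose by 1.85 ± 0.403 times at 24 h against sham hearts (log2 fold change 0.82, SE 0.14, q = 3.7e-04) and by 1.05 on the log2 scale from 4 to 24 h (SE 0.14, q = 7.1e-05).

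Erbb3, a receptor with little kinase activity of its own, was at 7.59, 9.28 and 8.74 CPM in sham hearts, at 5.26, 4.26 and 7.28 CPM at 4 h, and at 2.89, 4.41, 6.0 and 4.22 CPM at 24 h. Every post-MI library was below every sham library. Erbb3 fell at 24 h to 0.513 ± 0.158 of its sham level (log2 fold change -0.85, SE 0.20, q = 0.0029). At 4 h the log2 fold change was -0.55 (SE 0.21, q = 0.23) and between 4 and 24 h it was -0.30 (SE 0.20, q = 0.21), neither past the threshold.

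Erbb4, the receptor on which neuregulin acts in cardiomyocytes, was at 11.8, 17.8 and 14.2 CPM in sham hearts and at 13.7, 12.5 and 13.8 CPM at 4 h. At 24 h it was at 2.03, 2.75, 5.16 and 2.55 CPM, below all earlier libraries. The sham and 4 h groups overlapped, with means of 14.6 ± 3.0 (n = 3) and 13.3 ± 0.695 CPM (n = 3). Erbb4 fell at 24 h to 0.214 ± 0.105 of its sham level (log2 fold change -1.96, SE 0.22, interval -2.43 to -1.48, q = 1.4e-05). Leaving aside Ereg and Nrg1, which passed the filter only through their 24 h libraries, 4 of 7 members rose and 3 fell at 24 h against sham hearts, beside the 35.6% and 30.3% of all genes. Between 4 and 24 h, 3 of these 7 rose and 2 fell, shares near the 37.2% and 26.7% of all genes at that step.

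The 24 h libraries with the highest and the lowest values of the members that fell also differed in their cell markers. Library G had the highest Erbb4, Egf and Erbb3 of the 4 hearts at 24 h, and it also had the highest summed cardiomyocyte level, 21360 CPM, and the lowest summed neutrophil and monocyte level, 265.1 CPM. Library C, with the lowest Erbb4, Egf and Erbb3, had the lowest cardiomyocyte sum, 12390 CPM, and the highest neutrophil and monocyte sum, 1708 CPM. The sums of endothelial, fibroblast and mural markers at 24 h were also highest in library G, at 557.5, 575.0 and 468.1 CPM, but were lowest in library H. The sum of Schwann cell markers lay between 7.67 and 9.08 CPM in sham hearts and between 3.41 and 5.67 CPM at 24 h. Of the 6 cardiomyocyte markers 3 fell at 24 h and all 5 neutrophil and monocyte markers rose. The part of cell content in these results was not tested.

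In the 24-library table, Hbegf again rose at 4 h in Luc hearts, and Ereg, Egfr and Erbb2 joined it at 24 h. No member fell against sham hearts at any time. Areg, Btc and Nrg1 stayed under a mean of 1 CPM and were not tested, which left 7 members. Both tables are drawn side by side in the plot of differences from sham.

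**Figure D2:**
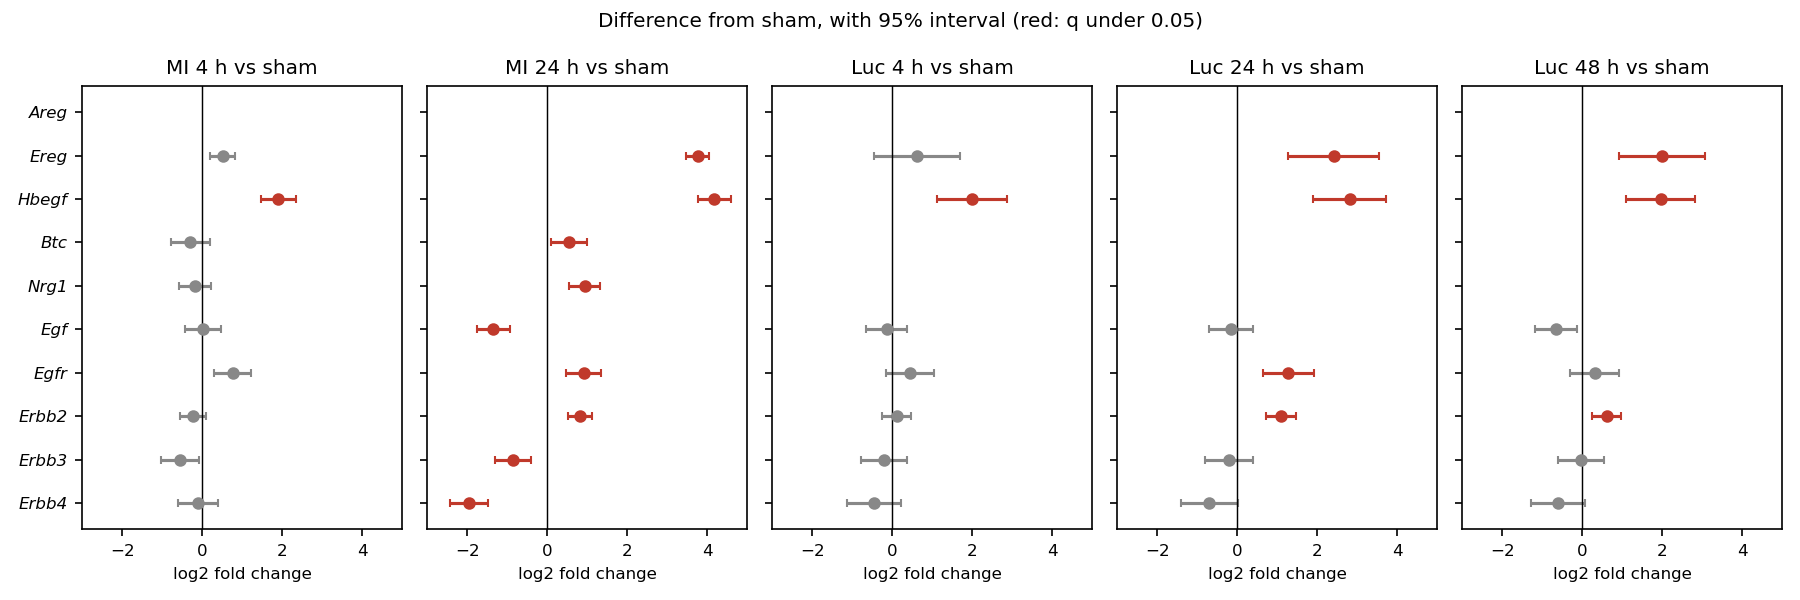
Log2 fold change against the sham group of the same table for the members tested, with 95% intervals, for MI without injection at 4 and 24 h and for Luc-injected MI at 4, 24 and 48 h, with genes past the threshold in red. Hbegf was past it in all 5 panels, and the falls of Egf, Erbb3 and Erbb4 at 24 h without injection have no counterpart past it in Luc hearts.

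Hbegf was at 20.5 and 17.6 CPM in the sham hearts and at 90.8, 73.9, 83.8 and 67.5 CPM in Luc hearts at 4 h. Luc hearts held 140.3, 134 and 144 CPM at 24 h and 114, 50.3, 177 and 34.2 CPM at 48 h. Every Luc library was above both sham libraries, and the spread was narrow at 24 h (139.5 ± 5.46 CPM, n = 3) and wide at 48 h (93.8 ± 65.3 CPM, n = 4). The rise was 4.15 ± 0.707 times at 4 h (log2 fold change 1.99, SE 0.42, q = 0.012), the only one among the 7 members, when 1.25% of all 12555 genes tested rose and 0.295% fell. It was 7.32 ± 0.852 times at 24 h (2.81, SE 0.44, q = 6.3e-05) and 4.92 ± 3.47 times at 48 h (1.96, SE 0.42, q = 0.0014). The call at 4 h was lost without either sham library, with q = 0.15 without sham 1 and q = 0.071 without sham 2, while the log2 fold change stayed between 1.89 and 2.10.

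Ereg was at 0.261 and 0 CPM in the sham hearts, or 8 and 0 reads, and at 1.05, 0.456, 1.39 and 0.221 CPM in Luc hearts at 4 h. At 24 h it was at 19.5, 2.59 and 1.92 CPM, with library A far above the others, and at 48 h at 5.47, 2.13, 4.41 and 2.63 CPM. All Luc libraries at 24 and 48 h were above both sham libraries, while 1 at 4 h was below a sham library. Ereg rose at 24 h (log2 fold change 2.42, SE 0.55, q = 0.0019) and at 48 h (1.99, SE 0.52, q = 0.0059), and at 4 h the difference was 0.61 (SE 0.52, q = 0.62). The pooled reads were 654 at 24 h and 451 at 48 h against 8 in sham hearts, ratios per depth of 63.3 and 27.4 with counting intervals of 31.9 to 147 and 13.8 to 63.9. Without sham 2 the q at 48 h was 0.057.

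Areg had no read in either sham library and between 0 and 0.438 CPM over the whole 24-library table. Its pooled Luc reads were 11 at 4 h, 6 at 24 h and 8 at 48 h. Per depth this was 2.00, 1.55 and 1.30 times a limit of 3 reads set for both sham libraries. These ratios leave out the counting error of the Luc reads and are not lower bounds of a fold. Luc library C at 24 h had no read either. The level of 0.675 CPM or more that every uninjected heart held at 24 h was not reached by any library of this table, but the tables were normalized separately and no test compared them. Btc was at 0.815 and 0.698 CPM in sham hearts and between 0.315 and 1.24 CPM in Luc hearts, and Nrg1 at 0.0652 and 0.0635 CPM in sham hearts and between 0.109 and 0.415 CPM in Luc hearts. Both rest on few reads per library.

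Egf was at 2.34 and 3.81 CPM in the sham hearts, at 2.50, 2.10, 2.57 and 3.49 CPM in Luc hearts at 4 h, at 2.07, 3.66 and 2.28 CPM at 24 h and at 1.02, 1.81, 1.43 and 2.08 CPM at 48 h. The 48 h libraries lay below both sham libraries, and the other times overlapped them. At 48 h the difference was -0.65 (SE 0.25, q = 0.053, with q from 0.032 to 0.40 over all alternatives), and at 24 h it was -0.15 (SE 0.26, q = 0.69).

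Egfr was at 4.66 and 4.89 CPM in the sham hearts, at 6.67, 7.54, 7.55 and 5.86 CPM in Luc hearts at 4 h, at 17.5, 12.6 and 9.87 CPM at 24 h and at 7.48, 4.91, 6.60 and 5.86 CPM at 48 h. All Luc libraries were above both sham libraries, by very little for library 2 at 48 h. Egfr rose at 24 h by 2.79 ± 0.820 times (log2 fold change 1.28, SE 0.31, q = 0.0032), and at 4 h the difference was 0.45 (SE 0.29, q = 0.52). From 24 to 48 h it fell again by 0.97 on the log2 scale (SE 0.26, q = 0.0053).

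Erbb2 was at 7.24 and 7.58 CPM in the sham hearts, at 10.6, 8.0, 7.24 and 6.92 CPM in Luc hearts at 4 h, at 14.3, 15.8 and 21.5 CPM at 24 h and at 12.3, 10.2, 13.8 and 11.2 CPM at 48 h. The 24 and 48 h groups were above sham hearts and the 4 h group overlapped them. Erbb2 rose by 2.32 ± 0.515 times at 24 h (log2 fold change 1.09, SE 0.19, q = 1.4e-04) and by 1.61 ± 0.216 times at 48 h (0.61, SE 0.18, q = 0.012). Without sham 1 the q at 48 h was 0.088, and over all alternatives it ran from 0.0021 to 0.14.

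Erbb3 was at 3.29 and 5.43 CPM in the sham hearts, and its Luc values of 2.51 to 5.21 CPM overlapped them at every time. At 24 h its difference was -0.20 (SE 0.29, interval -0.80 to 0.40, q = 0.63). Erbb4 was at 7.92 and 11 CPM in the sham hearts, at 5.63, 7.54, 6.87 and 6.44 CPM in Luc hearts at 4 h, at 4.19, 6.68 and 5.49 CPM at 24 h and at 5.69, 5.99, 3.71 and 8.93 CPM at 48 h. Its 4 h and 24 h libraries were all below both sham libraries and 1 of the 4 at 48 h was not. None of these differences passed the test, with -0.45 at 4 h (SE 0.33, q = 0.56), -0.70 at 24 h (SE 0.35, interval -1.41 to 0.02, q = 0.12) and -0.60 at 48 h (SE 0.33, q = 0.18).

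Of the 7 members 4 rose and 0 fell at 24 h in Luc hearts, against 25.3% and 8.79% of all genes, and 3 rose and 0 fell at 48 h, against 13.7% and 16.4%. Ereg is among those that rose at both times. It passed the filter of 1 CPM largely through its 24 and 48 h libraries. Its mean was 0.130 CPM in sham hearts, and 0.778 CPM in Luc and 1.08 CPM in AC hearts at 4 h. Its passing the filter and its rise are therefore not separate observations. For the count of 0 that fell, limma gave 0 members lower at an unadjusted p under 0.05 at 4 and 24 h and 1, Egf, at 48 h. Limma-voom gave 1, 4 and 3 calls in either direction at the 3 times, the same totals as limma, and these do not count falls alone. The median log2 fold change of all genes was 0.16 at 24 h, and the differences given for the members are against sham hearts and not corrected for this shift. The cardiomyocyte sum in this table was 38230 to 38730 CPM in sham hearts, 44370 to 56420 CPM in Luc hearts at 24 h and 24790 to 34640 CPM at 48 h. The Luc hearts at 24 h thus had no lower cardiomyocyte sum than sham hearts, unlike the uninjected hearts at 24 h. The sum does not describe each marker, since 2 of the 6 rose, 1 fell and 3 were not called in Luc hearts at 24 h. The neutrophil and monocyte sum was 2.73 to 22.6 CPM in sham hearts and 41.3 to 85.3 CPM in Luc hearts at 24 h. All 4 atrial markers also rose at 24 h, and 3 of 4 at 48 h. The part of cell content and sampled region in the member values was not tested.

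The plot of the injected hearts gives every group of this table.

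**Figure D3:**
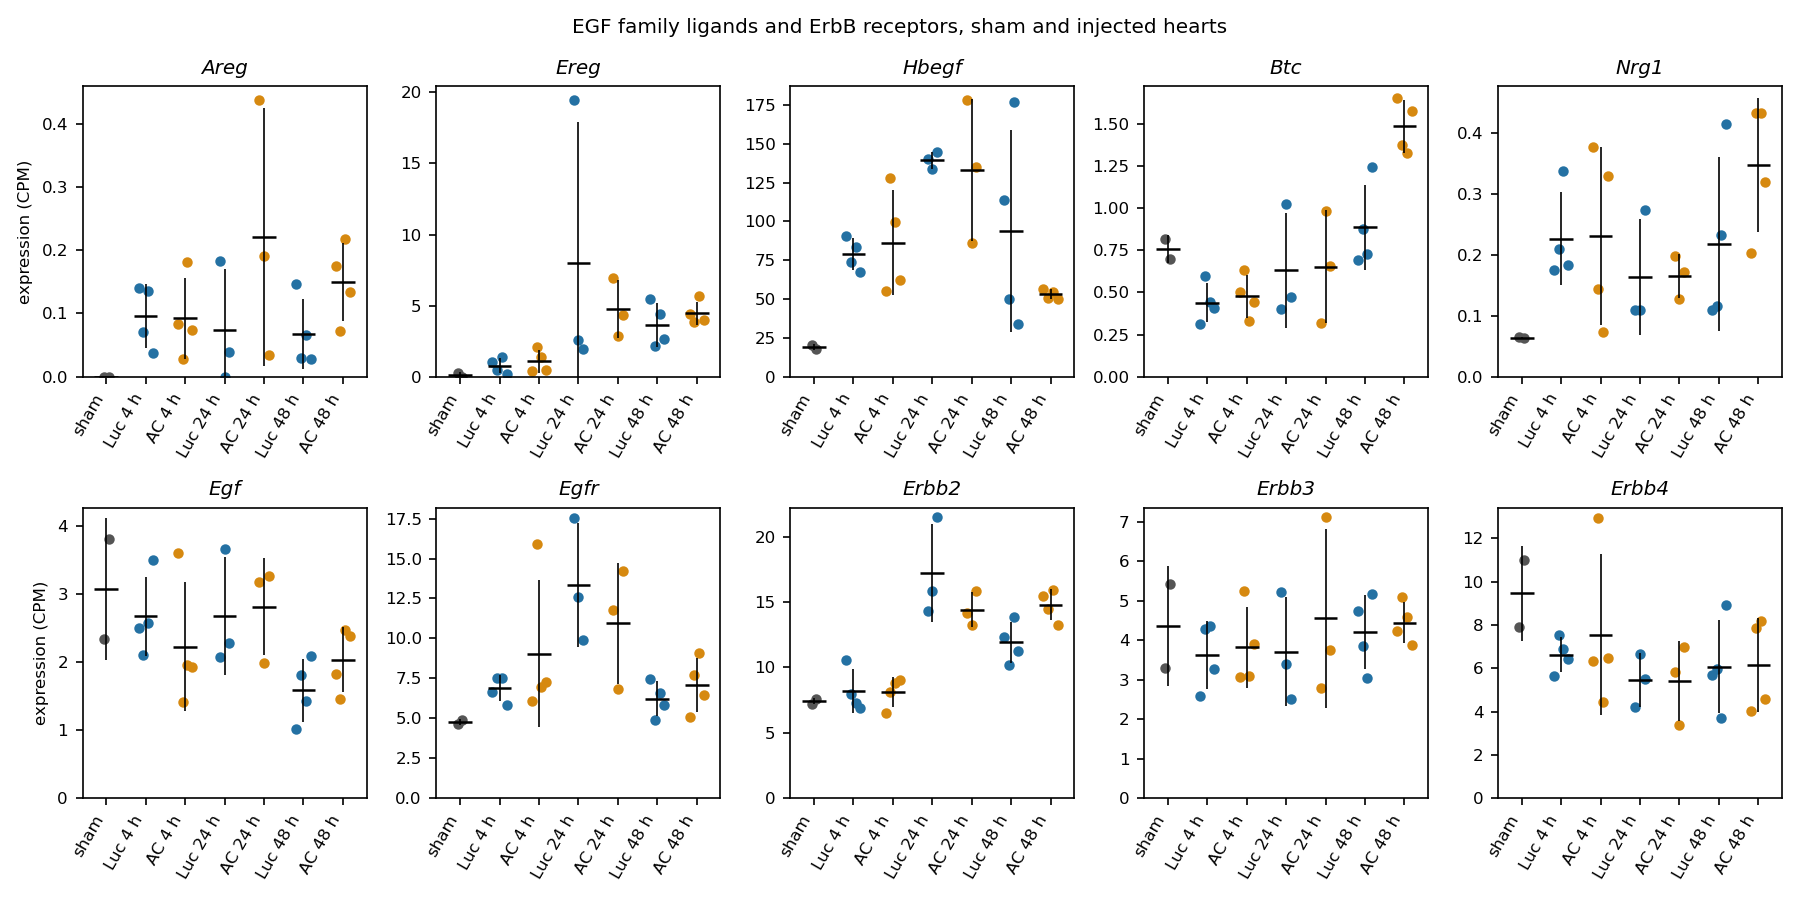
Expression of the 10 genes in CPM on linear axes, 1 point per library, in sham hearts (grey) and in hearts injected with Luc (blue) or AC modRNA (orange) at 4, 24 and 48 h post-MI, with the group mean and SD in black. Hbegf at 48 h was spread from 34.2 to 177 CPM in Luc hearts and lay between 49.9 and 56.5 CPM in AC hearts, and 1 AC library at 4 h stood apart for Egfr at 15.9 CPM.

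The comparison of AC with Luc hearts at the same time asked whether the injected modRNA changed the expression of the family. No member passed the test at 4, 24 or 48 h. At 4 and 24 h this was the case for nearly all genes, since 0.00796% of those tested differed at each time, a single gene, whereas 15.3% differed at 48 h. For these counts of 0, limma also gave 0 members at an unadjusted p under 0.05 and limma-voom 0 calls at each time. The intervals leave room for sizeable differences, as they reached from -0.68 to 1.07 at 4 h, from -1.14 to 0.89 at 24 h and from -1.24 to 1.16 at 48 h on the log2 scale over the 7 members.

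**Figure D4:**
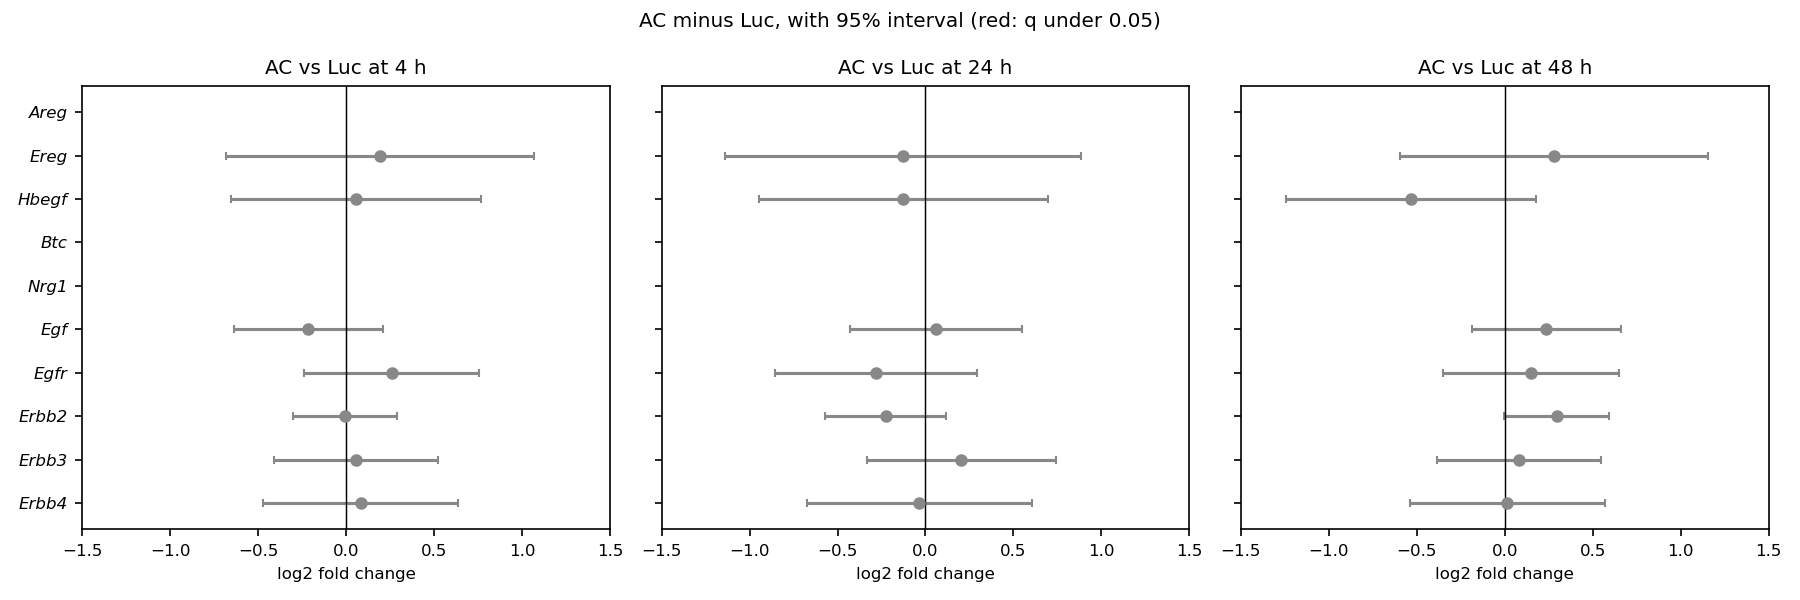
Log2 difference of AC from Luc hearts at 4, 24 and 48 h for the 7 members tested, with 95% intervals, none of them past the threshold. The interval of Hbegf at 48 h reached from -1.24 to 0.18 and that of Erbb2 from -0.00 to 0.59.

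Hbegf in AC hearts was at 55.5, 128, 99.5 and 62.5 CPM at 4 h, at 178, 86.2 and 135 CPM at 24 h and at 56.5, 50.7, 54.9 and 49.9 CPM at 48 h. The AC and Luc groups overlapped at each time. The difference was 0.05 at 4 h (SE 0.34, interval -0.66 to 0.77), -0.13 at 24 h (SE 0.40, interval -0.95 to 0.69) and -0.53 at 48 h (SE 0.34, interval -1.24 to 0.18, q = 0.31). At 48 h Luc library 4, the lowest of its group at 34.2 CPM, decided the result, since without it the difference was -0.91 with q = 0.037. Within AC hearts Hbegf fell by 1.25 on the log2 scale from 24 to 48 h (SE 0.37, q = 0.0089), when 44.5% of all genes changed, and this call was lost without AC library a at 24 h (q = 0.065). In Luc hearts the same step was -0.85 (SE 0.37, q = 0.069), and the difference between both steps was -0.41 (SE 0.52, q = 0.74).

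Btc stayed under the filter and is given as values only. It was at 1.66, 1.37, 1.33 and 1.58 CPM in AC hearts at 48 h and at 0.693, 0.876, 0.730 and 1.24 CPM in Luc hearts, so that each AC library was above each Luc library. The pooled reads were 222 against 116, a ratio per depth of 1.63 with a counting interval of 1.30 to 2.06. With no filter on low values Btc passed the test at 48 h (q = 0.036). At 4 h it was between 0.328 and 0.632 CPM in AC hearts and between 0.315 and 0.597 CPM in Luc hearts, and the groups overlapped at 24 h as well.

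Erbb2 was at 6.50, 8.10, 8.77 and 9.03 CPM in AC hearts at 4 h, at 14.2, 13.2 and 15.8 CPM at 24 h and at 15.4, 14.4, 15.9 and 13.3 CPM at 48 h. At 48 h the 3 highest AC libraries were above all Luc libraries, and the difference was 0.29 (SE 0.14, interval -0.00 to 0.59, q = 0.17). The AC effect on Erbb2 was larger at 48 than at 24 h by 0.52 (SE 0.22, unadjusted p = 0.027, q = 0.23 in limma), the only member with an unadjusted p under 0.05 in the 3 comparisons of AC effects between times. None passed the threshold there, where 0.00796% of all genes did between 4 and 24 h, 3.35% between 4 and 48 h and 2.56% between 24 and 48 h, and limma-voom likewise gave 0 calls.

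Egfr was at 6.08, 15.9, 6.95 and 7.27 CPM in AC hearts at 4 h, at 11.8, 6.83 and 14.2 CPM at 24 h and at 5.08, 7.68, 9.06 and 6.44 CPM at 48 h. AC library 2 at 4 h was high for Egfr and also held the highest Hbegf, Ereg, Erbb3 and Erbb4 of its group, and its lowest correlation with another library of its group, 0.940, was the lowest within any group of this table. The AC difference of Egfr at 4 h was 0.26 (SE 0.24), and without library 2 it was -0.02. Ereg in AC hearts lay at 0.378, 2.07, 1.38 and 0.477 CPM at 4 h, at 6.92, 2.89 and 4.37 CPM at 24 h and at 4.38, 3.83, 5.64 and 4.01 CPM at 48 h, each time overlapping Luc hearts.

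Erbb4 in AC hearts lay at 6.33, 12.9, 4.44 and 6.50 CPM at 4 h, at 5.85, 3.40 and 6.99 CPM at 24 h and at 4.01, 7.85, 8.19 and 4.57 CPM at 48 h, and it overlapped Luc hearts at each time. Erbb3 ran from 2.79 to 7.12 CPM and Egf from 1.42 to 3.59 CPM over all AC libraries, again with overlap at every time. Areg reached 0.438 CPM in AC library a at 24 h, the highest value of the table, and Nrg1 ran from 0.0728 to 0.434 CPM.

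Between the times within a treatment, Ereg rose from 4 to 24 h in both Luc hearts (log2 fold change 1.80, SE 0.46, q = 0.0047) and AC hearts (1.48, SE 0.46, q = 0.027). Erbb2 did so too, by 0.98 in Luc hearts (SE 0.16, q = 8.8e-05) and 0.76 in AC hearts (SE 0.16, q = 0.0019). Egfr rose in Luc hearts (0.83, SE 0.26, q = 0.018). At this step 3 of 7 members changed in Luc hearts, where 32.3% of all genes did, and 2 of 7 in AC hearts, where 18.7% did. Both counts include Ereg, which passed the filter largely through its 24 and 48 h libraries. The rise of Ereg in Luc hearts rested on library A at 24 h, without which the log2 fold change was 0.92 (q = 0.055), and in AC hearts it was lost without library a or d at 24 h or library 1 or 4 at 4 h, with q up to 0.12. The rise of Egfr was lost without Luc library A at 24 h (q = 0.12) or Luc library 4 at 4 h (q = 0.051).

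From 24 to 48 h, Egfr fell by 0.97 and Erbb2 by 0.48 in Luc hearts (SE 0.16 and q = 0.016 for Erbb2), 2 of 7 members against 41.9% of all genes, and in AC hearts Hbegf was the 1 of 7 that changed. All genes together had a median shift of -0.25 at this step in Luc hearts, and with libraries rescaled to equal totals Erbb2 differed by -0.04 (q = 0.88) and Egfr by -0.54 (q = 0.14). The call of Erbb2 was also lost without Luc library D at 24 h (q = 0.14) or Luc library 2 at 48 h (q = 0.054).

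Beyond the 10 members, further genes of the pathway were described as 5 lists: other ligands, sheddases and their iRhom cofactors, adaptors and effectors, feedback and turnover, and induced targets. The lists were chosen with earlier results of these data known, so that their counts and medians are descriptions only. Their names are labels, and whether the ErbB receptors drove any of these genes was not tested. At 4 h post-MI without injection the listed genes past the threshold were feedback genes and induced targets. Of all genes tested 1.55% rose at this time. Of 13 feedback genes 2 rose, Errfi1 by 2.48 (SE 0.27, q = 4.9e-04) and Spry4 by 1.24 (SE 0.28, q = 0.043), both known as inhibitors of receptor signalling. Of 8 induced targets tested 4 rose, led by the immediate early genes Fos (4.25, SE 0.35) and Egr1 (3.03, SE 0.41). The median log2 fold change was 0.85 for the targets and 0.18 for the feedback genes, against -0.03 for all genes.

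At 24 h without injection, when 35.6% of all genes rose and 30.3% fell, 7 of the 8 targets rose, with Myc (4.32, SE 0.15) and Fosl1 (4.31, SE 0.23) the highest and a list median of 2.49 against 0.04 for all genes. Of the feedback genes 7 rose, led by Errfi1 (2.79, SE 0.25) and Spry4 (1.61, SE 0.26), and Spred2 fell (-0.40, SE 0.13, q = 0.016), with a list median of 0.78. Of the 8 sheddases and iRhoms 4 rose, not far from the share of all genes, led by Adam12 (2.69, SE 0.21) and Rhbdf2 (1.39, SE 0.17), the latter a cofactor of the ADAM17 protease. The 15 adaptors and effectors changed in shares near those of all genes, with 4 higher, led by the ERK pathway kinase Map2k1 (1.44, SE 0.10) and the adaptor Shc1 (1.14, SE 0.08), and 5 lower, led by Gab1 (-1.36, SE 0.15) and Plcg1 (-1.16, SE 0.12). Tgfa, a further EGFR ligand, rose by 1.37 (SE 0.18, q = 5.5e-05), 1 of the 2 other ligands that could be tested.

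**Figure D5:**
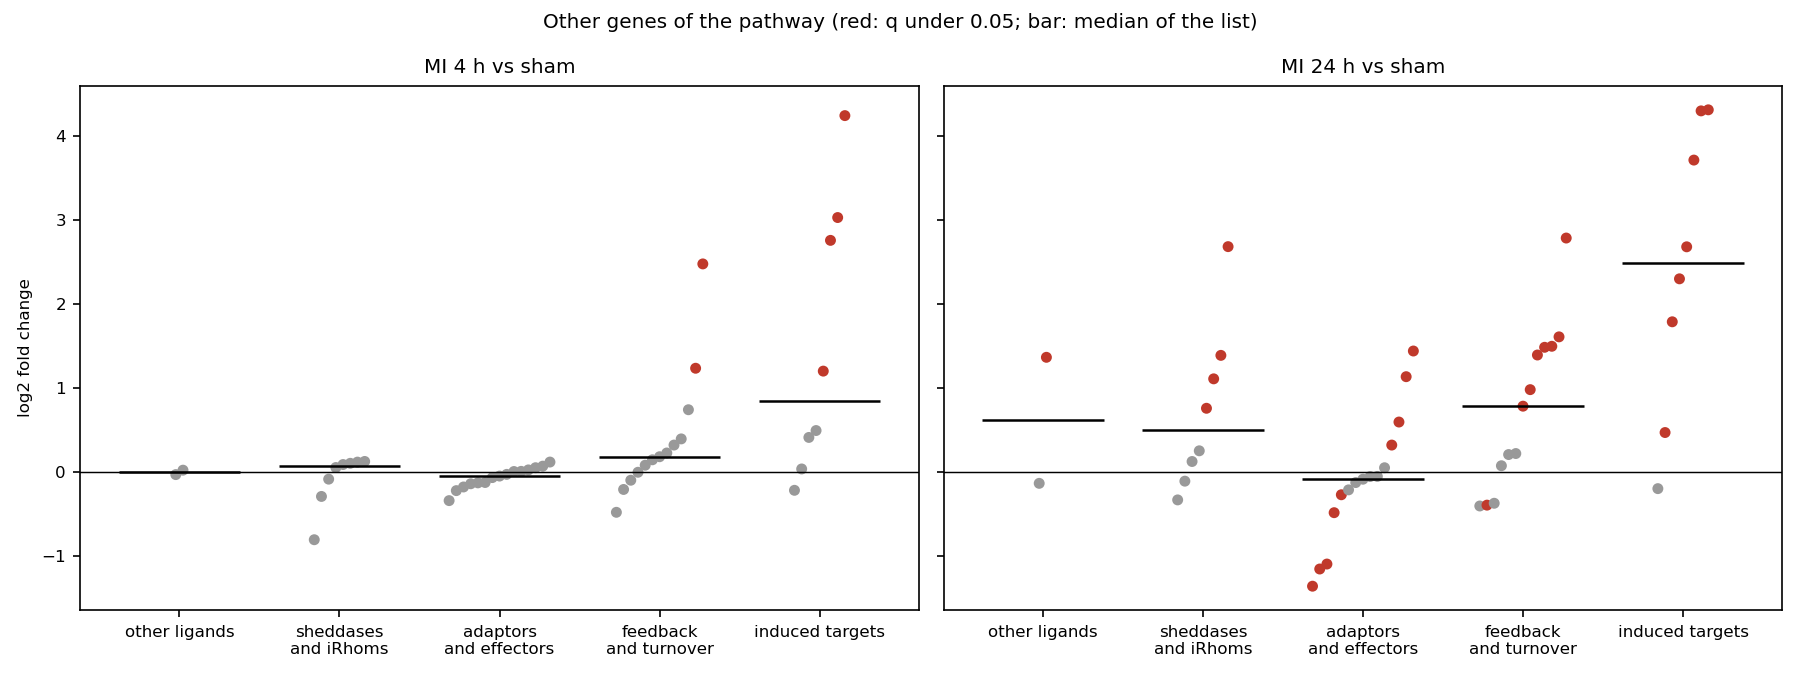
Log2 fold change of each tested gene of the 5 pathway lists at 4 h (left) and 24 h (right) post-MI without injection, with genes past the threshold in red and the median of each list as a bar. The medians of the targets were 0.85 at 4 h and 2.49 at 24 h, and that of the adaptors at 24 h was -0.09 with 4 genes higher and 5 lower.

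In Luc hearts the targets moved against sham as well, with 5 of 9 higher at 4 h (median 1.67, led by Fos at 5.37 and Egr1 at 4.42), 7 of 9 at 24 h (median 1.90, led by Egr1 at 3.62 and Fos at 3.39) and 5 of 9 at 48 h (median 1.0, led by Ier3 at 2.41 and Fos at 2.26). Over all genes 1.25%, 25.3% and 13.7% were higher at these times, with medians of 0.02, 0.16 and -0.03. The feedback genes had 2 of 13 higher at 4 h, Spry4 (1.5) and Errfi1 (1.22), 10 of 13 at 24 h and 5 of 13 at 48 h, with medians of 0.16, 0.80 and 0.62. Among the 8 sheddases and iRhoms, 3 rose at 24 h, led by the iRhoms Rhbdf1 (1.94, SE 0.28) and Rhbdf2 (1.68, SE 0.30). The 2 that fell were the sheddases Adam19 (-1.43, SE 0.35) and Adam17 (-0.66, SE 0.22), when 8.79% of all genes fell. At 48 h, 12.1% of all genes were higher in AC than in Luc hearts and 3.27% were lower. Of the 8 sheddases and iRhoms 2 were higher, Adam17 (0.68, SE 0.17, q = 0.010) and Adam10 (0.49, SE 0.16, q = 0.042), both known to release EGF family ligands. Of the 13 feedback genes 1 was lower, Errfi1 (-0.77, SE 0.25, q = 0.041), and 0 were higher. Of the 15 adaptors and effectors 1 was lower, Ptpn11 (-0.50, SE 0.13, q = 0.014), and of the 9 targets 1 was higher, Ccnd1 (0.75, SE 0.22, q = 0.022). In that comparison the median over all genes was 0.135, the cardiomyocyte sum was 18290 to 21400 CPM in AC and 24790 to 34640 CPM in Luc hearts, and the macrophage sum was 201 to 248 and 141.5 to 184 CPM. Their part in these differences was not tested.

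The genes whose levels followed Hbegf and Erbb4 most closely over the 10 uninjected libraries were taken as those with the highest Pearson correlation of log2(CPM + 1). These members had the largest ligand and receptor change at 24 h on that scale, on which the added 1 shrinks the change of weakly expressed genes such as Ereg, whose ratio of means was larger. For Hbegf they included Slc23a2 (r = 0.993) and Plaur (r = 0.990), and over the 24 libraries of the other table their correlations with Hbegf were 0.703 and 0.863. For Erbb4 they were Ppm1k (r = 0.998), Prkaca (r = 0.997) and Lsmem1 (r = 0.996), and over the 24 libraries 0.647, 0.157 and 0.463. The 10 points fall into 3 groups that differ in most genes at 24 h, so that these correlations describe the order of the groups and not a relation within them.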

How the data were processed

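Poly(A) RNA of the mouse LV was sequenced, with 10 libraries in one table and 24 in another. The authors mapped reads with STAR to mm10, assigned them to RefSeq genes by expectation maximization in Partek Flow and scaled the totals by TMM, so that the deposited values are CPM. The second deposited table held CPM to which 1 had been added, and 1 was subtracted. The kit was stranded, and whether strand was used in counting is not given in the sources used here. Between 81.5% and 85.8% of values under 1 CPM were whole multiples of 1 read (tolerance 0.02), too few to recover counts, so that reads per gene are estimates.

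Tests used limma 3.58.1 (R 4.3.3), as linear models with an empirical Bayes trend on log2(CPM + 1), with all groups of a table in 1 model without covariates, for the 12487 and 12555 genes whose mean reached 1 CPM. Benjamini-Hochberg adjustment ran over all of these genes. The script was tested on simulated data. Folds are ratios of mean CPM with propagated SD, and ratios of pooled reads have exact intervals at the 95% level, which cover counting error only. Groups came from the sample labels.

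The members and lists were chosen with earlier results of these data known. The genes named are the 10 members, at most the 2 largest rises and 2 largest falls past the threshold in each pathway list, marker genes, and the 3 genes closest in pattern to the ligand and to the receptor with the largest log2(CPM + 1) change. Some genes that this rule or the marker lists would name are not reported here. The alternatives were a pseudocount of 0.1, no filter or one at 5 CPM, the compared groups alone, no trend, array weights, rescaling by median ratios or to equal totals, a replicate block and each library left out. Limma-voom on estimated reads was added after the data were seen. Other software was Python 3.11.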

Additional observations from a re-analysis of the deposited data

Results flagged for a closer look

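For each of the 10 members in each group of 4 libraries, the highest and lowest library were compared with the rest, which made 50 checks. Of these checks 2 held a library that stood apart. Chance alone flags about 1 in 20 such checks at the 5% level used, and checks within a group share its libraries and are not independent. Areg in library H of hearts 24 h post-MI without injection was at 2.21 CPM, while the other 3 libraries of its group were at 0.675 to 0.782 CPM, so that the gap took 0.930 of the range of the group. Areg was not tested, and all 4 libraries were above every sham library with or without library H. Egfr in library 2 of AC hearts at 4 h was at 15.9 CPM, against 6.08 to 7.27 CPM in the other 3, a gap of 0.879 of the range. The difference of Egfr between AC and Luc hearts at 4 h was not past the threshold with or without this library.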

How the results depend on the processing

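Of 872 values of called members recomputed under an alternative, 0 changed sign and 31 lost the call, and 28 of the values not called became calls. The larger changes in the number of members past the threshold were these. At 24 h post-MI against sham it went from 9 to 8 with limma-voom, 10 with no filter and 6 with a filter at 5 CPM, and leaving out a library gave 7 to 9. At 4 h post-MI it went from 1 to 2 with a pseudocount of 0.1 or limma-voom and to 4 with array weights, and leaving out a library gave 1 to 2. For MI 24 h against MI 4 h it went from 7 to 4 with a filter at 5 CPM, which left 6 members tested. For AC against Luc at 48 h it went from 0 to 1 with no filter, and to between 0 and 1 with a library left out. For AC at 48 against 24 h it went from 1 to 2 with no filter, array weights or the compared groups alone, and to between 0 and 2 with a library left out. For AC at 24 against 4 h it went from 2 to 1 with the filter at 5 CPM, to 4 with array weights, and to between 1 and 2 with a library left out. For Luc at 48 h against sham it went from 3 to 1 with array weights, 2 with the compared groups alone or the 5 CPM filter and 4 with no trend, and to between 2 and 4 with a library left out. For Luc at 48 against 24 h it went from 2 to 1 with median-ratio rescaling or the compared groups alone and to 0 with equal totals, to 3 with array weights, and to between 1 and 3 with a library left out. For Luc at 24 against 4 h it went from 3 to 4 with array weights or the compared groups alone and to 2 with either rescaling or the 5 CPM filter, and to between 1 and 4 with a library left out. Leaving out a library gave 0 to 1 for Luc at 4 h against sham. The causes were not tested.

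Only differences that were not called reversed. Hbegf of AC against Luc became -0.0067 at 4 h with equal totals and 0.049 at 24 h with array weights. With a library left out it ran from -0.16 to 0.24 at 4 h and from -0.37 to 0.15 at 24 h, Egfr of AC against Luc at 4 h from -0.022 to 0.40, Erbb3 of AC against Luc at 24 h from -0.11 to 0.44, and, for Luc at 24 h against sham, Egf from -0.41 to 0.11 and Erbb3 from -0.49 to 0.093.

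Deviations of same-numbered libraries correlated with r from -0.265 to 0.345, and in no comparison with 3 or more pairs were all r over 0.1, so that the numbers were not taken to pair the hearts. With a replicate block 8 in place of 9 members passed at 24 h post-MI, Btc being lost (0.39, q = 0.18), and the number called stayed the same in the other comparisons with such a fit. With 2 sham hearts in the 24-library table and values of Areg, Ereg, Nrg1 and Btc that rest on few reads, small differences of these genes were not detectable at this depth.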
